A study of Mus musculus with 18 samples.

Results

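Interferon-stimulated genes of the mouse spleen are described here, chosen by gene symbol from a list of 39 that cells switch on when interferon binds its receptor. Of these, 29 were taken as type I genes and 10 as interferon-gamma genes from general knowledge. A total of 37 were found among the 19326 lines of the table, 27 type I and 10 interferon-gamma. Mx1 and Mx2 were not analysed here. The table holds 18 libraries of poly(A) RNA, 3 for each of 6 groups of ICR mice aged 10 weeks, as RPKM, a read number divided by gene length and by the library's mapped reads. Con were control mice. A10 mice received alginate oligosaccharide (AOS, short sugar chains from brown algae) at 10 mg/kg, by a route and for a time that the sources used here do not give for the A10 and STZ-A10 mice. STZ mice received streptozotocin, which kills pancreatic beta cells and models type 1 diabetes, and STZ-A10 mice received STZ and AOS at 10 mg/kg. Both transplant groups carried STZ as well. A10-FMT mice then received intestinal content of donors given AOS, and Con-FMT mice that of control donors, by mouth. The donors' content was pooled within each donor group, so that the recipients of a group shared 1 inoculum. Nothing in the labels ties animals of different groups together. P-values set differences against the spread between libraries within groups, which the fit used here pooled over all 6 groups.

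Type I interferons, the alpha and beta proteins, are made by nearly any infected cell and in bulk by plasmacytoid dendritic cells. They bind Ifnar1 and Ifnar2 and send a complex that holds Stat2 and Irf9 to interferon-stimulated response elements (ISRE) in the promoters of antiviral genes. Interferon-gamma comes mostly from NK and T cells, binds Ifngr1 and Ifngr2, and acts through gamma-activated sites (GAS), which switch on chemokines that call T cells and GTPases that attack vacuoles holding microbes. Many of the genes answer to both, so the division is one of emphasis. In the spleen, macrophages, dendritic cells and lymphocytes all express them at rest.

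The promoters of 6 members are shown because the results below turn on them and because they differ in these elements. Each is the 200 bases before the transcription start, taken from RefSeq promoter windows on GRCm38.p6 and written 5′ to 3′ on the strand of the gene. Capitals mark every match to GAAANNGAAA on either strand, a core of the ISRE, or to TTCNNNGAA, a core of the GAS that reads the same on both strands. Isg15 lies at chr4:156200819-156201018 on the minus strand, Ifit3 at chr19:34583329-34583528 on the plus strand, Rsad2 at chr12:26456453-26456652 on the minus strand, Isg20 at chr7:78913224-78913423 on the plus strand, Gbp5 at chr3:142496734-142496933 on the plus strand and Igtp at chr11:58199356-58199555 on the plus strand.
Isg15: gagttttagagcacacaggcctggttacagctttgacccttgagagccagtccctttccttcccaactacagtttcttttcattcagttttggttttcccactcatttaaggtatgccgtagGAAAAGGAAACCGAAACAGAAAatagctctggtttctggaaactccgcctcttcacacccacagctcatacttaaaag
Ifit3: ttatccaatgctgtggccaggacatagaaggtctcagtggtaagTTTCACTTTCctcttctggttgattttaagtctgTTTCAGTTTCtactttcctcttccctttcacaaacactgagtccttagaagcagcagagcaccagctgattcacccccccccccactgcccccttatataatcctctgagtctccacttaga
Rsad2: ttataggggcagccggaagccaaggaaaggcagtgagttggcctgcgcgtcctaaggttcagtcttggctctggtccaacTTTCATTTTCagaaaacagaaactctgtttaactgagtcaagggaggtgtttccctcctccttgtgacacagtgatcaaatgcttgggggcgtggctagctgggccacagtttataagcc
Isg20: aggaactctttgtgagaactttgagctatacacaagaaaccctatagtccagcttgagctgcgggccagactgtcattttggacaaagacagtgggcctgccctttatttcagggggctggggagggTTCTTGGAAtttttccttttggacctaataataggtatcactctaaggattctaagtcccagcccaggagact
Gbp5: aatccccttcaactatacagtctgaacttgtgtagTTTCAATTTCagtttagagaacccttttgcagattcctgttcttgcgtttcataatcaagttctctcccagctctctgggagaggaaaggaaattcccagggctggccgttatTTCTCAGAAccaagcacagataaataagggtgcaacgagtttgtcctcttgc
Igtp: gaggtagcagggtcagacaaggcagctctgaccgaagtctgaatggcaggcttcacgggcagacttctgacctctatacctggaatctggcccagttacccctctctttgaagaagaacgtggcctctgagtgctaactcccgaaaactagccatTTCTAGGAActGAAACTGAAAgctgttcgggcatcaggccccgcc

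Isg15 held 3 overlapping ISRE matches, which begin at -78, -72 and -66 from the start, and Ifit3 held 2 at -156 and -122. Rsad2 held 1 at -120. Isg20, which has 3 annotated starts, held a GAS match at -73 of the start shown and no ISRE match at any of them. Gbp5 held an ISRE match at -165 and a GAS match at -52. In Igtp a GAS match at -45 stood beside an ISRE match at -34. Windows of 300 bases, from 250 before the start to 50 after it, were available for 21 type I and 9 interferon-gamma members, some with several starts. An ISRE match was present in 13 of 26 type I windows, in 8 of 10 interferon-gamma windows and in 3.44% of all 32851 mouse windows. A GAS match was present in 5 of 26, 4 of 10 and 8.30% of them. Irf7, Ifi44 and Cxcl9, which are among the members with the largest fold changes below, held no match to either. A match is a string of letters and not a measured binding site.

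The libraries held between 11532 and 12893 genes at an RPKM of at least 1. Globin genes took 10.4% to 42.7% of the summed RPKM, and 8 erythroid genes together ran from 56150 RPKM in STZ replicate 1 to 278835 in A10-FMT replicate 1. Markers of B cells, T cells, NK cells, red pulp macrophages and erythroid cells were above 0 in every library, as a spleen label requires. A10-FMT replicate 3 stood apart with the lowest T cell (66.2 RPKM) and B cell (558 RPKM) sums of all libraries, and Con replicate 1 with the highest neutrophil sum (14243 RPKM). Sequencing depth is unknown, because the table holds RPKM without counts.

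All 37 members reached an RPKM of 1 in each of the 18 libraries and were tested. Their mean RPKM over 18 libraries ran from 6.69 for Ifit1, which binds viral RNA lacking host caps, to 193 for Isg20, an exonuclease that degrades viral RNA. Next to Isg20 stood Isg15, a small protein that is joined to others like ubiquitin (155), Bst2, which tethers budding virus to the cell (90.8), Igtp, a GTPase of the immunity-related family (87.7), and Rsad2 or viperin, which makes a chain-terminating nucleotide (80.2). This order is that of the means and did not hold in every library. In A10-FMT replicate 3 Isg15 (465 RPKM) was above Isg20 (446 RPKM). The median of the means was 18.9 for type I and 20.6 for interferon-gamma members. The highest library exceeded the lowest by a median of 5.15-fold for type I members, from 2.0-fold for the transcription factor Irf9 to 20.0-fold for Ifi44. The same median was 3.41-fold for interferon-gamma members, from 1.73-fold for Gbp7 to 6.28-fold for Cxcl9.

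The high ends were not spread evenly over the libraries. A10 replicate 3 was the highest of 18 for 23 of 27 type I members and for 7 of 10 interferon-gamma members. The other members peaked in A10-FMT replicate 3 (Rsad2, Isg20, Isg15, Irgm2 and Igtp), in STZ replicate 3 (Xaf1) or in A10 replicate 2 (Cxcl9). The lowest values were scattered over 10 libraries, and A10-FMT replicate 3 held 10 of them. Some members have near-identical copies, such as Ifit1bl1 for Ifit1, Ifit3b for Ifit3, Oas1g for Oas1a, Trim30d for Trim30a and the Gbp genes among themselves, and the annotated Irgm2 and Igtp overlap on the same strand. How reads were split between such partners was not measured, so their values are uncertain.

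**Figure D1:**
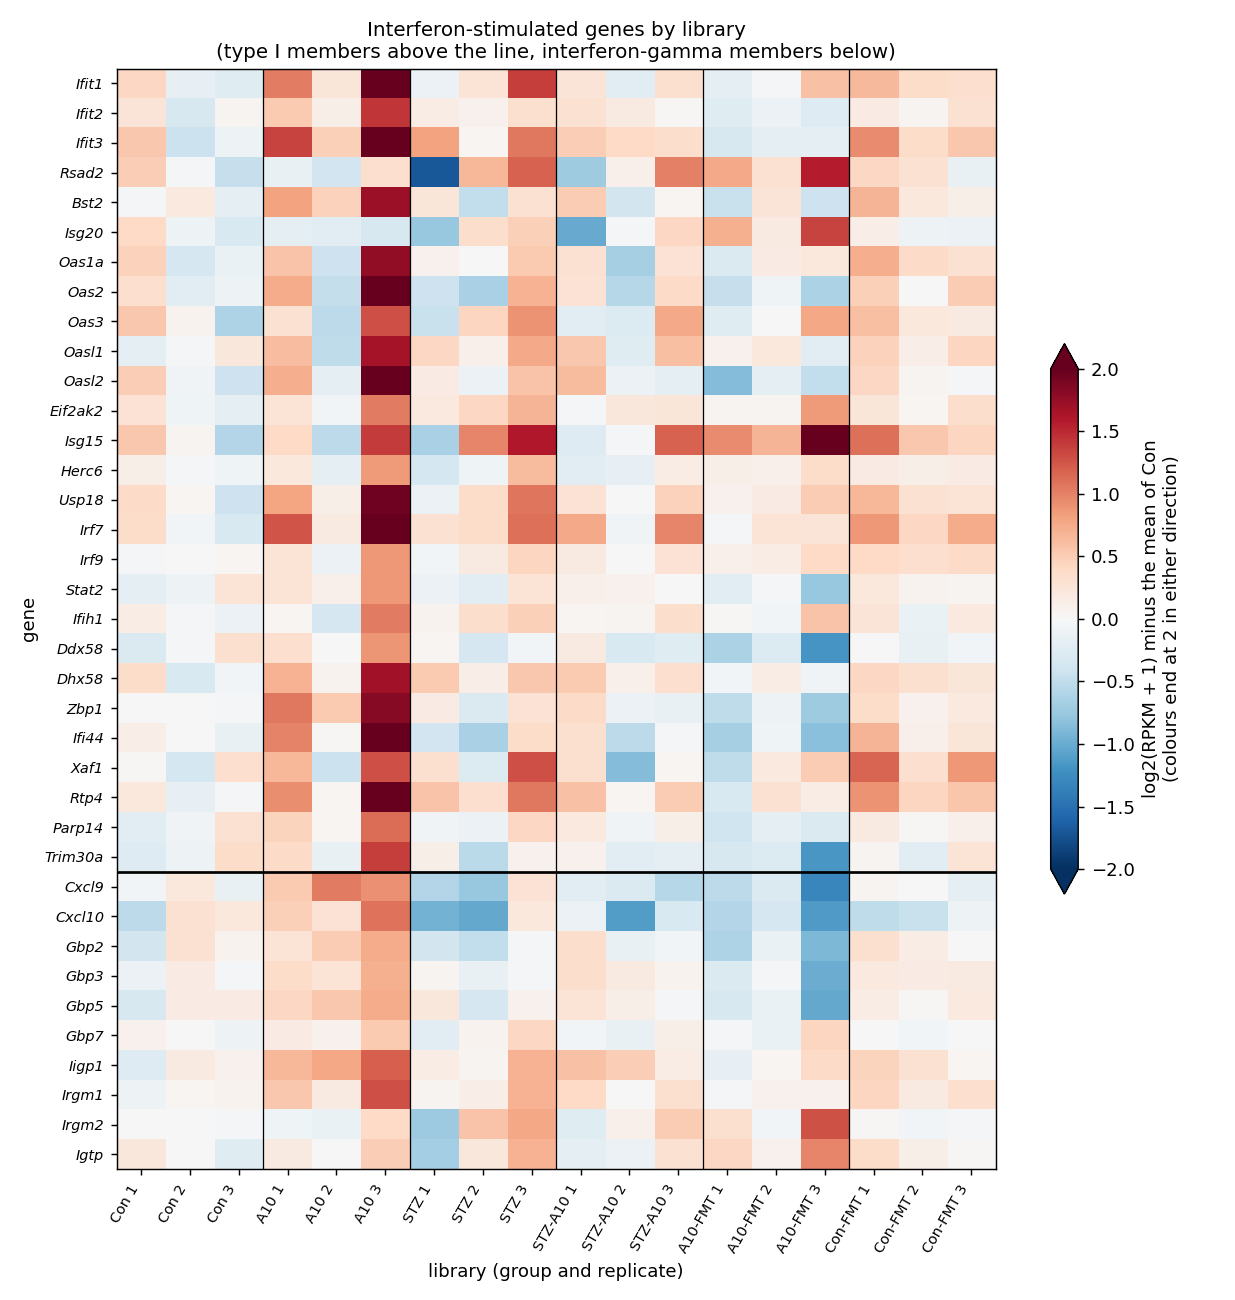
Difference of each member's log2(RPKM + 1) from the mean of the 3 Con libraries (colour) in each library (columns, grouped by vertical lines), with 27 type I members above the horizontal line and 10 interferon-gamma members below it. The column of A10 replicate 3 is the reddest, and Rsad2, Isg20, Isg15, Irgm2 and Igtp are highest in A10-FMT replicate 3 instead.

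Expressed as the median difference from the mean of Con on the log2(RPKM + 1) scale, A10 replicate 3 stood at 1.43 for type I and 0.74 for interferon-gamma members. A10 replicate 1 stood at 0.57 and 0.39, and A10 replicate 2 at -0.05 and 0.28. Over all genes tested the same 3 medians were 0.06, 0.03 and 0.04. Outside A10, type I medians ran from -0.24 in A10-FMT replicate 1 to 0.56 in STZ replicate 3, and interferon-gamma medians from -0.41 in A10-FMT replicate 3 to 0.35 in STZ replicate 3. Among the Con libraries, replicate 1 had the highest type I median (0.26) and the lowest interferon-gamma median (-0.11).

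**Figure D2:**
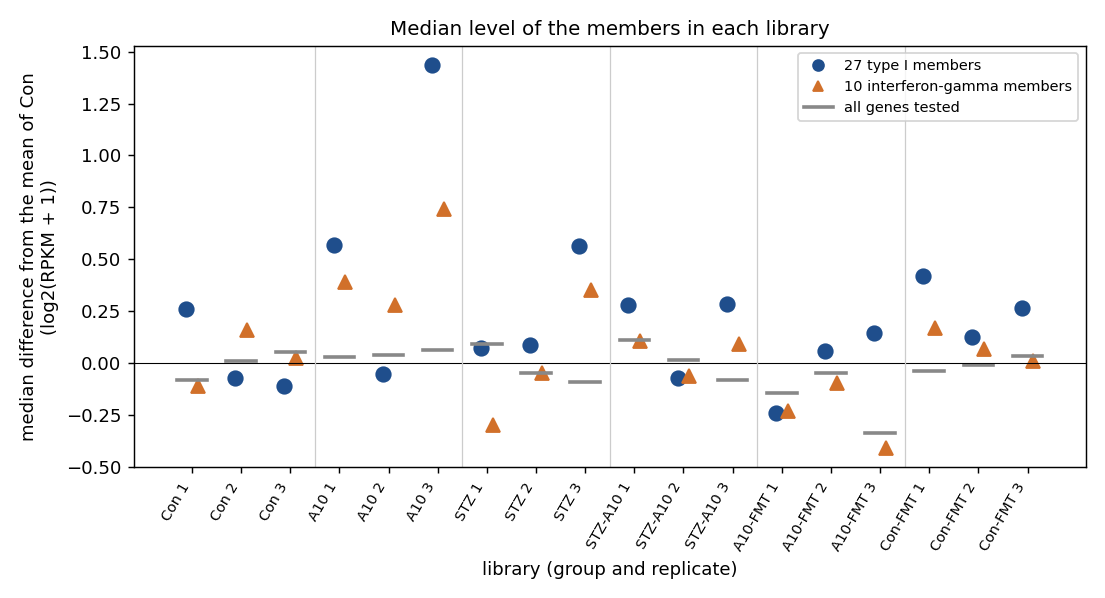
Median difference from the mean of Con (vertical axis, log2(RPKM + 1)) in each library for 27 type I members (circles), 10 interferon-gamma members (triangles) and all 12905 genes tested (grey lines). A10 replicate 3 reaches 1.43 for type I members, whereas the interferon-gamma median is above 0.25 in all 3 A10 libraries.

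Across 12905 genes, limma (trend, log2(RPKM + 1), all 18 libraries in 1 fit, Benjamini-Hochberg adjustment) called 0 of the 37 members at an adjusted p under 0.05 in any of 7 comparisons. The share of all genes called was 0.163% in STZ against Con, 0.00775% in each of A10-FMT against STZ, Con-FMT against STZ, A10 against Con and STZ-A10 against STZ, and 0% in A10-FMT against Con-FMT and in the interaction of STZ and AOS. At an unadjusted p under 0.05, 17 members were higher and 0 lower in A10 than in Con, 0 higher and 7 lower in A10-FMT than in Con-FMT, 0 higher and 2 lower in A10-FMT than in STZ, 1 higher in Con-FMT than in STZ, and 0 in STZ against Con and in STZ-A10 against STZ. The interaction had 11 members below 0 at that threshold. A fit that weighted the libraries by their spread called 16 of 37 members in A10 against Con, all higher, where it called 10.3% of all genes. It called 14 members in A10-FMT against Con-FMT (1 higher and 13 lower, 47% of all genes), 4 in STZ against Con (28.8% of all genes) and 1 in Con-FMT against STZ (18.3% of all genes). In these 3 comparisons this was a smaller share of the members than of all genes. Replicates 1 to 3 were weighted 0.36, 5.07 and 0.36 in Con, 2.70, 1.33 and 1.63 in A10, and 7.37, 0.56 and 0.11 in A10-FMT. The weighted means of Con and A10-FMT thus rested mostly on 1 library each.

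A10 was compared with Con to ask what AOS does in mice without diabetes, and most members were higher in A10. The log2 fold change was above 0 for 25 of 27 type I and 10 of 10 interferon-gamma members, with medians of 0.59 and 0.54 against 0.05 for all genes tested. Of these, 11 type I and 6 interferon-gamma members had an unadjusted p under 0.05, together 17 of 37, where 3.56% of all genes were higher at that threshold and 5.25% differed in either direction. The libraries of A10 and Con did not overlap for 2 of 27 type I members (Bst2 and Zbp1) and for 5 of 10 interferon-gamma members (Cxcl9, Gbp3, Gbp5, Iigp1 and Irgm1), all higher in A10, as were 11.7% of all genes tested.

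Among the IFIT and antiviral effectors, Ifit3, a partner that steadies Ifit1 on viral RNA, was 27.3, 14.4 and 88.8 RPKM in A10 and 14.98, 7.17 and 9.29 in Con. A10 replicate 3 was far above the other A10 libraries, and A10 replicate 2 lay below Con replicate 1, so the groups overlapped. The log2 fold change was 1.62 ± 0.45 (SE), with an unadjusted p of 0.0026 and an adjusted p of 0.46 in limma. Bst2 was 128, 101 and 241 RPKM in A10 and 71.6, 84.2 and 64.8 in Con, with every A10 library above every Con library, a log2 fold change of 0.99 ± 0.31 and an adjusted p of 0.657. Ifit1 was 9.12, 4.88 and 28.8 RPKM in A10 and 5.66, 3.44 and 3.21 in Con (log2 fold change 1.28), and Ifit2 gave 0.69. Rsad2 and Isg20 did not share this pattern and gave -0.06 and -0.25.

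The transcription factor Irf7, which drives the amplification of type I interferon, was 93.0, 43.6 and 276 RPKM in A10 and 49.97, 36.7 and 30.7 in Con. Here too A10 replicate 2 lay among the Con libraries, and the fitted log2 difference was 1.42 ± 0.47 with adjusted p = 0.669. Irf9 and Stat2, which share a complex, gave 0.34 and 0.41. Ifi44, an antiviral protein of the cytoplasm, was 10.3, 4.72 and 43.4 RPKM in A10 and 5.20, 4.68 and 4.09 in Con. It had the largest ratio of A10 replicate 3 to the mean of the other A10 libraries, 5.80-fold, and a fitted log2 difference of 1.33 ± 0.52 with adjusted p = 0.787.

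The sensors of foreign nucleic acid were all above 0 as well. Zbp1, which senses Z-form nucleic acid and triggers necroptosis, was 51.7, 35.3 and 88.4 RPKM in A10 and 24.5, 24.3 and 23.9 in Con. The 3 Con libraries were nearly equal and all lay below the 3 A10 libraries. Its log2 fold change was 1.14 ± 0.26, with an adjusted p of 0.282, the smallest among the members in this comparison. Dhx58, a regulator of the RIG-I family, gave 0.82, Ddx58, which is RIG-I itself, 0.40, and Ifih1, the sensor of long double-stranded RNA, 0.25. The 6 members of the OAS and PKR families ran from 0.35 for Oas3 to 0.91 for Oasl2, and 0 of 6 had an unadjusted p under 0.05. Usp18, the protease that removes Isg15 from its targets and dampens the receptor, gave 0.95, and Isg15 and its ligase Herc6 gave 0.43 and 0.29.

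The interferon-gamma members were more even over the A10 libraries. Cxcl9, a chemokine that draws T cells, was 14.2, 20.8 and 19.1 RPKM in A10 and 9.29, 11.3 and 8.56 in Con. No A10 library lay within the range of Con, and the highest was replicate 2 rather than 3. The fitted log2 difference was 0.82 ± 0.26 with adjusted p = 0.657. Iigp1, a GTPase that coats the vacuole of intracellular parasites, was 21.4, 23.2 and 31.3 RPKM in A10 and 10.8, 14.97 and 14.0 in Con, again without overlap, and had a fitted log2 difference of 0.88 ± 0.20 with adjusted p = 0.286. The guanylate-binding proteins, which lyse vacuoles and bacteria, gave 0.51 (Gbp2), 0.45 (Gbp3), 0.56 (Gbp5) and 0.25 (Gbp7). Irgm1, a regulator of the other GTPases, gave 0.67, whereas Igtp and Irgm2 gave 0.22 and 0.06.

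**Figure D3:**
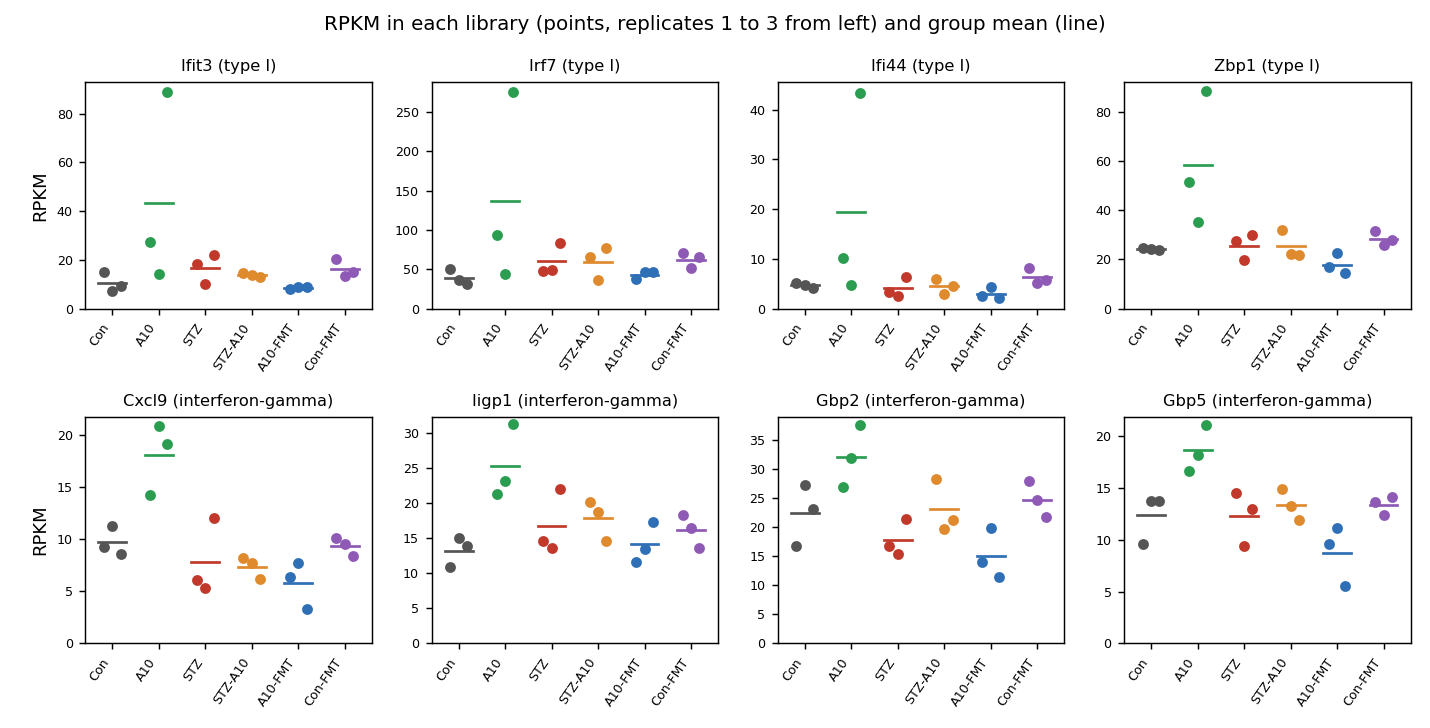
RPKM (vertical axes, from 0) of 4 type I and 4 interferon-gamma members in each library (points, replicates 1 to 3 from left to right) with the mean of each group (line). For Ifit3, Irf7 and Ifi44 the A10 mean is carried by replicate 3, whereas all 3 A10 libraries of Cxcl9, Iigp1 and Gbp5 lie above all 3 Con libraries.

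Because A10 replicate 3 stood apart, the comparison was repeated without it. The median log2 fold change of type I members went from 0.59 to 0.16 and that of interferon-gamma members from 0.54 to 0.37. Members higher at an unadjusted p under 0.05 went from 11 to 2 of 27 and from 6 to 2 of 10. Ifit3 gave 0.92, Irf7 0.72 and Ifi44 0.51 without this library, against 0.78 for Cxcl9 and 0.72 for Iigp1. Of the type I members, 26 of 27 were highest in replicate 3 among the A10 libraries, 19 were there at least 2-fold above the mean of replicates 1 and 2, and replicate 1 exceeded replicate 2 for 27 of 27. No interferon-gamma member (0 of 10) reached that 2-fold. The median ratio was 2.43 for type I and 1.33 for interferon-gamma members. Replicate 2 pulled in the other direction. Without it 27 members had an unadjusted p under 0.05 and 1 of them, Zbp1, passed the adjusted threshold, among 9 of 12905 genes tested. At the unadjusted threshold, the share of all genes was computed for the main fit only, here and below.

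Cell type markers differed between A10 and Con as well, and their part in the members' values was not tested. In bulk spleen, a change in the number of cells of a type and a change in RNA per cell cannot be told apart. The 7 T cell genes in the table were all higher on average in A10, with sums of 329 to 364 RPKM against 178 to 311 in Con, as were the 8 NK genes (117 to 162 against 114 to 135) and the 7 B cell genes (2032 to 2339 against 1464 to 2514). The 8 erythroid genes were all lower, with sums of 82435 to 116813 RPKM against 117571 to 177267, and A10 replicate 3 had the lowest of them. Of 9 plasmacytoid dendritic cell genes, whose cells are a main source of type I interferon, 8 were higher, and they summed to 323, 332 and 353 RPKM in A10 and lay within the 254 to 362 of Con. Higher in A10 were 3 of 6 monocyte genes, with sums of 118 to 134 against 102 to 234 RPKM, 4 of 7 red pulp macrophage genes (533 to 606 against 454 to 626) and 0 of 7 neutrophil genes (523 to 1345 against 755 to 14243). Transcripts of other organs were also present, at 13.6 to 68.9 RPKM against 19.03 to 222 for 7 liver genes (1 higher), 36.9 to 539 against 21.3 to 1399.6 for 6 exocrine pancreas genes (3 higher) and 1.30 to 2.34 against 17.3 to 274 for 6 testis germ cell genes (0 higher). Of all these markers, only 4 testis germ cell genes were listed at 0 in an A10 library, and none was in a Con library.

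A second pattern crossed the groups. Rsad2, Isg20, Isg15, Igtp and Irgm2 were highest in A10-FMT replicate 3. All but Isg20 were lowest in STZ replicate 1, which had the lowest erythroid sum. A low erythroid sum did not always go with low values. In A10 replicate 3 that sum was low too, at 82435 RPKM. There they were at 1.84 (Isg15), 1.33 (Irgm2), 1.30 (Igtp), 1.03 (Rsad2) and 0.81 (Isg20) times the median of the other 17 libraries. Isg20 was 102, 224 and 242 RPKM in STZ, 86.7, 172 and 234 in STZ-A10, and 285, 199 and 446 in A10-FMT. Alas2, which starts heme synthesis in erythroid cells, was 217, 774 and 896 RPKM, 282, 644 and 856, and 917, 674 and 1272 in the same libraries. The 3 libraries had the same order for both genes in Con, STZ, STZ-A10 and A10-FMT, but not in A10 or Con-FMT. The summed level of the 8 erythroid genes was highest in A10-FMT replicate 1 instead.

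Rsad2 had 18.5 RPKM in STZ replicate 1, 98.6 and 142 in the other STZ libraries, and 185 at its highest in A10-FMT replicate 3. Isg15 ran from 56.1 to 465 RPKM between the same libraries, and was 176 and 273 in the other STZ libraries. Igtp ran from 47.1 to 151 RPKM and Irgm2 from 19.4 to 80.4 RPKM, again between the same libraries. STZ replicate 1 was thus the lowest and A10-FMT replicate 3 the highest of the 18 for 4 of the 5 members. Isg20 differed in having its lowest value in STZ-A10 replicate 1.

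With group means in the model, so that only differences between libraries of a group counted, log2(RPKM + 1) was regressed on the log2 summed RPKM of the 8 erythroid genes. This fit was added after the values had been seen. Of the members, 4 rose with the erythroid level at an adjusted p under 0.05 in limma, and 0 fell, where 5.56% of all genes tested had a positive and 13.3% a negative slope at that threshold. The genes with a negative slope went from 1714 to 46 after rescaling without globin genes, 99 with median centring and 201 with quantile normalization, and those with a positive slope from 717 to 981, 794 and 897, while the same 4 members passed. With weighted libraries Isg15 passed as well and 4 members, Ddx58, Zbp1, Gbp3 and Gbp5, fell with the erythroid level. The slope was 1.19 ± 0.20 (SE) for Rsad2 (adjusted p = 0.00171), 0.76 ± 0.11 for Isg20 (adjusted p = 0.000627), 0.48 ± 0.13 for Igtp (adjusted p = 0.0234) and 0.56 ± 0.16 for Irgm2 (adjusted p = 0.0319). A slope of 1 would be a doubling for each doubling of the erythroid genes. Isg15 had a slope of 0.87 ± 0.31 that missed the threshold (adjusted p = 0.0585). The other 32 members had slopes from -0.32 for Bst2 to 0.46 for Oas3, and the median was -0.08 for type I, -0.03 for interferon-gamma members and -0.13 for all genes tested. Without STZ replicate 1 only Isg20 passed the threshold, and without STZ replicate 3 or STZ-A10 replicate 3 only Rsad2 and Isg20 did. When any other library was left out, 3 to 5 members passed with a positive slope, and without A10-FMT replicate 3 Ddx58, Gbp3 and Gbp5 passed with a negative one.

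**Figure D4:**
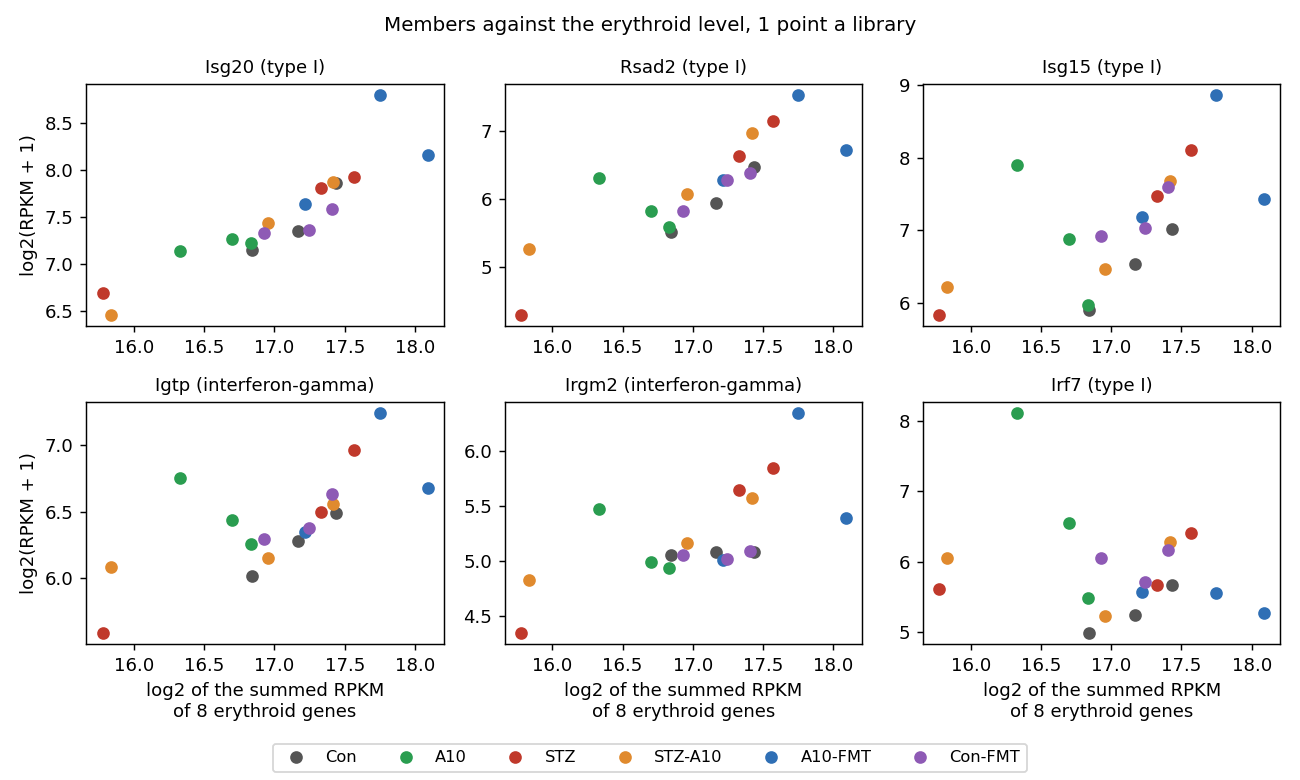
Level of 6 members (vertical axes, log2(RPKM + 1)) against the log2 of the summed RPKM of 8 erythroid genes, with 1 point for each of 18 libraries coloured by group. Isg20 and Rsad2 climb along the axis with slopes of 0.76 and 1.19 within groups, whereas Irf7 has a slope of -0.02 and its highest point in A10.

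The comparison of STZ with Con bears on how the members differ in diabetic spleen. No member (0 of 37) had even an unadjusted p under 0.05, where 11.1% of all genes did. The median log2 fold change was 0.20 for type I members, 22 of 27 above 0, and 0.04 for interferon-gamma members, 5 of 10 above 0, against -0.01 for all genes. Rtp4, a chaperone that restrains flaviviruses, was 24.8, 20.99 and 35.2 RPKM in STZ and 19.3, 14.5 and 15.9 in Con. It was the only member, 1 of 37, whose libraries did not overlap between STZ and Con, where 5.77% of all genes were higher without overlap, and had a fitted log2 difference of 0.65 ± 0.40 with adjusted p = 0.626 in limma.

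Isg15 and Ifit3 gave log2 fold changes of 0.64 ± 0.60 and 0.63 ± 0.45 in STZ against Con, with groups that overlapped. Isg15 was 56.1, 176 and 273 RPKM in STZ and 129, 91.9 and 59.2 in Con. Ifit3 was 18.4, 10.3 and 21.9 RPKM in STZ. Both chemokines lay below 0. Cxcl10 was 9.30, 8.77 and 21.8 RPKM in STZ and 12.7, 23.5 and 21.9 in Con, a fitted log2 difference of -0.58 ± 0.35 with adjusted p = 0.602. Cxcl9 was 6.12, 5.31 and 12.01 RPKM in STZ, a fitted log2 difference of -0.35 ± 0.26 with adjusted p = 0.718. In both cases STZ replicates 1 and 2 were below every Con library, while replicate 3 lay within the range of Con for Cxcl10 and above it for Cxcl9. The 4 members that the weighted fit called, where it called 28.8% of all genes, were Cxcl9, Cxcl10, Gbp2 and Gbp5, all lower. The 8 NK genes were all lower in STZ, with sums of 46.7 to 79.7 RPKM against 114 to 135 in Con, as were the 7 T cell genes (159 to 242 against 178 to 311), the 7 neutrophil genes (372 to 1590 against 755 to 14243) and the 6 testis germ cell genes (2.34 to 8.26 against 17.3 to 274). All 7 red pulp macrophage genes (657 to 691 against 454 to 626) and all 6 exocrine pancreas genes (727 to 3495 against 21.3 to 1399.6) were higher in STZ. Of 9 plasmacytoid dendritic cell genes 7 were lower and 2 higher in STZ, with sums of 327 to 519 RPKM against 254 to 362. The part of these cells in the values of the members was not tested.

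A10-FMT was compared with Con-FMT to ask whether the donors' AOS matters to diabetic recipients. The members leaned lower in A10-FMT, but so did the table as a whole. The median log2 fold change was -0.39 for type I and -0.30 for interferon-gamma members, with 21 of 27 and 7 of 10 below 0, against -0.17 for all genes tested. With each library centred on its median the type I median was -0.21 and the interferon-gamma median -0.13. Of the members, 7 of 37 were lower at an unadjusted p under 0.05, a share close to that of all genes, of which 20.1% were lower and 23.6% differed in either direction. The libraries did not overlap for 14 type I and 5 interferon-gamma members that were lower in A10-FMT, 19 of 37, where 23.9% of all genes were lower without overlap.

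The 7 members were Gbp2, Gbp3, Gbp5, Cxcl9, Ddx58, Zbp1 and Stat2, so 4 of 10 interferon-gamma and 3 of 27 type I members. Gbp2 was 14.1, 19.9 and 11.4 RPKM in A10-FMT and 27.9, 24.6 and 21.8 in Con-FMT, without overlap, a fitted log2 difference of -0.70 ± 0.21 with adjusted p = 0.204 in limma. Cxcl9 was 6.40, 7.71 and 3.32 RPKM in A10-FMT and 10.1, 9.54 and 8.41 in Con-FMT, also without overlap, a fitted log2 difference of -0.66 ± 0.26 with adjusted p = 0.204. In both genes A10-FMT replicate 3 was the lowest library of all 18. Ifi44 was 2.54, 4.30 and 2.17 RPKM against 8.07, 5.04 and 5.65 (log2 fold change -0.87 ± 0.52), and Ifit3 was 7.88, 8.72 and 8.79 RPKM against 20.2, 13.3 and 15.04 (-0.84 ± 0.45).

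In this comparison 9 of 37 members lay above 0, furthest Isg20, Rsad2, Isg15, Irgm2 and Igtp. These 5 were picked above for their peak in A10-FMT replicate 3, a library of this comparison. Isg20 was 285, 199 and 446 RPKM in A10-FMT and 191, 163 and 160 in Con-FMT, with every A10-FMT library above every Con-FMT library, and had a fitted log2 difference of 0.78 ± 0.37 with adjusted p = 0.212. It was the only member, 1 of 37, higher without overlap, where 691 of 12905 genes were. Rsad2, Isg15, Irgm2 and Igtp gave 0.69, 0.65, 0.52 and 0.32, with overlap. The erythroid genes were all higher in A10-FMT, with sums of 152268 to 278835 RPKM against 124598 to 173619. The T cell, B cell and NK genes were all lower, with sums of 66.2 to 256 against 272 to 303 RPKM, 558 to 1896 against 2048 to 2192 and 41.1 to 72.9 against 89.4 to 111. Lower too were all 9 plasmacytoid dendritic cell genes (130 to 528 against 209 to 534 RPKM) and 6 of 7 red pulp macrophage genes (399 to 539 against 518 to 656). So were 4 of 6 monocyte and 2 of 7 neutrophil genes. None of these genes was at 0 in a library of either group, and the part of these cells was not tested. Without A10-FMT replicate 3, 2 members had an unadjusted p under 0.05, and without Con-FMT replicate 1 there were 3. Without A10-FMT replicate 2, 5 members (Ddx58, Cxcl9, Gbp2, Gbp3 and Gbp5) passed the adjusted threshold, among 2625 genes. That library had the highest sum of the 6 exocrine pancreas genes, 13734 RPKM, where the next highest of the 18 libraries had 5426, and the 7 liver genes summed to 83.9 to 331 RPKM in A10-FMT against 7.96 to 36.2 in Con-FMT. Leaving out A10 replicate 3, which enters only the shared spread, gave 14 members at an unadjusted p under 0.05, and leaving out A10 replicate 2 gave 10. With quantile normalization or median centring 4 members were lower at that threshold.

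A10-FMT and Con-FMT were each compared with STZ, whose libraries both comparisons share. In A10-FMT against STZ the medians were -0.31 for type I and -0.23 for interferon-gamma members against -0.15 for all genes tested. Lower at an unadjusted p under 0.05 were 2 of 37 members, Ddx58 and Gbp5, where 15.2% of all genes were lower and 17.2% differed in either direction. Without overlap between the groups, 6 of 37 members were lower, where 1556 of 12905 genes were. Ifit3 was 1 of them, at 7.88, 8.72 and 8.79 RPKM in A10-FMT and 18.4, 10.3 and 21.9 in STZ. It gave -0.85 ± 0.45 (adjusted p = 0.323 in limma). Rsad2, at 105, 76.6 and 185 RPKM in A10-FMT against 18.5, 98.6 and 142, gave 0.82 ± 0.59 with overlap, and Isg20 gave 0.73 ± 0.37. Gbp5, at 9.58, 11.1 and 5.53 RPKM against 14.5, 9.44 and 12.95, gave -0.48 ± 0.21 (adjusted p = 0.273), and Igtp, at 101, 80.3 and 151 RPKM against 47.1, 89.2 and 124, gave 0.41 ± 0.29. The T cell genes (66.2 to 256 RPKM against 159 to 242 in STZ), B cell genes (558 to 1896 against 1371 to 2541) and red pulp macrophage genes (399 to 539 against 657 to 691) were all lower in A10-FMT and the erythroid genes all higher (152268 to 278835 against 56150 to 194228), and their part was not tested. The 5 members furthest above 0 were Rsad2, Isg20, Isg15, Igtp and Irgm2, the same 5 that were picked for their peak in A10-FMT replicate 3. The 2 lower members became 9 without A10 replicate 3, 5 without A10-FMT replicate 2, 4 without A10 replicate 2 or STZ replicate 2 and 3 without A10-FMT replicate 1. They became 0 without STZ replicate 1, STZ replicate 3 (where 3 members were higher) or A10-FMT replicate 3, and 0 with quantile normalization or median centring.

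In Con-FMT against STZ the medians were 0.05 and 0.11 for type I and interferon-gamma members, near the 0.00 of all genes tested. Only Gbp2 had an unadjusted p under 0.05, 1 of 37, where 5.24% of all genes did. Gbp2 was 27.9, 24.6 and 21.8 RPKM in Con-FMT and 16.8, 15.4 and 21.3 in STZ, without overlap, a fitted log2 difference of 0.46 ± 0.21 with adjusted p = 0.94 in limma. Gbp2 and Gbp3, 2 of 37 members, were higher without overlap, where 896 of 12905 genes were. Cxcl9 gave 0.30 ± 0.26 with 10.1, 9.54 and 8.41 RPKM against 6.12, 5.31 and 12.01. Ifi44 was 8.07, 5.04 and 5.65 RPKM against 3.32, 2.60 and 6.26 (0.56 ± 0.52), Oas2, a maker of the second messenger that activates RNase L, was 16.0, 11.1 and 16.4 against 8.08, 6.80 and 18.7 (0.45 ± 0.52), and Xaf1, an apoptosis factor, was 52.4, 29.1 and 42.5 against 28.9, 18.9 and 57.6 (0.33 ± 0.45). All 3 overlapped, and STZ replicate 3 was again the high STZ library. The p of Gbp2 missed 0.05 with a replicate block, with no filter on low values, and without Con replicate 3, A10 replicate 2, STZ replicate 1 or 2, STZ-A10 replicate 2 or 3, A10-FMT replicate 1 or Con-FMT replicate 1 or 2. All 7 T cell genes were higher in Con-FMT, with sums of 272 to 303 RPKM against 159 to 242 in STZ, as were 7 of 8 NK genes (89.4 to 111 against 46.7 to 79.7). Higher too were 6 of 7 B cell, 6 of 7 neutrophil, 7 of 9 plasmacytoid dendritic cell, 4 of 6 monocyte, 5 of 8 erythroid and 7 of 7 liver genes. Lower were 6 of 7 red pulp macrophage genes (518 to 656 against 657 to 691), 5 of 6 exocrine pancreas and 6 of 6 testis germ cell genes. The part of these cells was not tested.

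STZ-A10 was compared with STZ to ask what AOS does in diabetic mice. No member (0 of 37) had an unadjusted p under 0.05, where 2.93% of all genes did, and the medians were -0.10 for type I and 0.03 for interferon-gamma members against 0.03 for all genes tested. Gbp2 was 28.3, 19.7 and 21.2 RPKM in STZ-A10, a log2 fold change of 0.35 ± 0.21, and Gbp3 was 24.5, 21.6 and 20.1 against 19.8, 17.1 and 18.4 in STZ, without overlap (0.24 ± 0.19, adjusted p = 0.996 in limma for both). Gbp3 was the only member, 1 of 37, without overlap, where 424 of 12905 genes were higher and 608 lower without overlap. Xaf1 was 28.8, 12.2 and 23.7 RPKM in STZ-A10 and gave -0.62 ± 0.45. Ifit1, at 4.99, 3.26 and 5.25 RPKM against 3.58, 5.04 and 11.97, gave -0.39 ± 0.47, and Isg15, at 73.9, 87.8 and 204 RPKM, gave -0.34 ± 0.60. For Xaf1, Ifit1 and Isg15, STZ replicate 3 was the highest library of both groups. All 7 T cell genes (176 to 276 RPKM against 159 to 242 in STZ), all 7 B cell genes (1567 to 2375 against 1371 to 2541) and all 6 monocyte genes (118 to 210 against 129 to 144) were higher on average in STZ-A10. Higher too were 7 of 8 NK and 7 of 9 plasmacytoid dendritic cell genes, but only 2 of 8 erythroid and 2 of 7 neutrophil genes. The part of these cells was not tested.

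The interaction of STZ and AOS asks whether the difference made by AOS is the same with and without STZ. Its log2 value, the AOS difference with STZ minus that without, was below 0 for 25 of 27 type I and 10 of 10 interferon-gamma members, with medians of -0.72 and -0.40 against -0.02 for all genes tested. An unadjusted p under 0.05 was reached by 11 of 37 members, all below 0, where 1.65% of all genes were below 0 at that threshold and 2.86% differed in either direction. The values were -1.84 ± 0.64 for Ifit3, -1.67 ± 0.66 for Ifit1, -1.45 ± 0.66 for Irf7, -0.83 ± 0.37 for Cxcl9 and -0.77 ± 0.29 for Iigp1, and limma gave each an adjusted p of 1. In STZ-A10, Ifit3 was 14.5, 13.6 and 13.1 RPKM, Irf7 was 65.7, 36.5 and 76.7 RPKM against 47.7, 49.7 and 83.8 in STZ, Cxcl9 was 8.14, 7.74 and 6.16 RPKM, and Iigp1 was 20.1, 18.8 and 14.6 RPKM against 14.6, 13.6 and 22.0 in STZ. The libraries of STZ-A10 and STZ overlapped for each of these members. Without A10 replicate 3 the 11 members became 2, without STZ replicate 3 also 2, and without STZ-A10 replicate 2 they became 3. The count was 7 without Con replicate 2 or Con-FMT replicate 3, 6 without Con replicate 3 and 20 without A10 replicate 2.

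**Figure D5:**
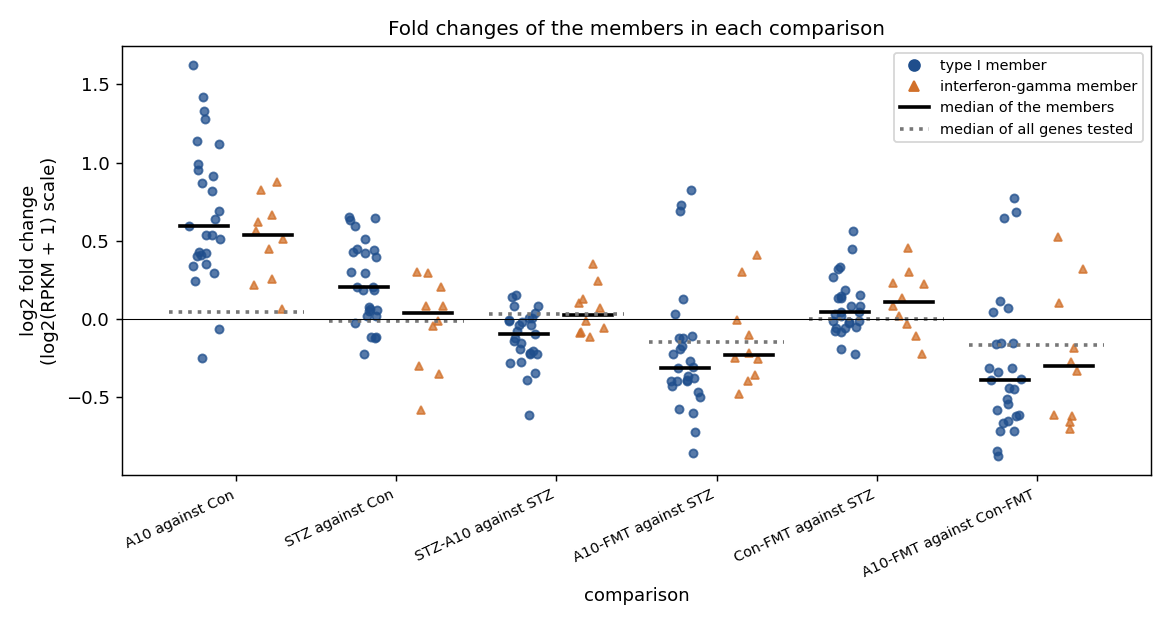
Log2 fold change (vertical axis, log2(RPKM + 1) scale) of every member in each of 6 comparisons, with type I members as circles, interferon-gamma members as triangles, their medians as black lines and the median of all genes tested as a dotted line. Medians of 0.59 and 0.54 in A10 against Con stand above the 0.05 of all genes, whereas in A10-FMT against Con-FMT the median of all genes is itself at -0.17.

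Upstream of the members, transcripts of the interferon genes that were analysed were scarce. Ifng was 0.68, 1.15 and 1.88 RPKM in Con, 1.25, 1.68 and 1.89 in A10, and 0.26, 0.56 and 0.68 in STZ. Its log2 fold change was 0.25 ± 0.20 in A10 against Con and -0.55 ± 0.20 in STZ against Con (unadjusted p = 0.0158 and adjusted p = 0.283 in limma). In STZ against Con 11.1% of all genes had an unadjusted p under 0.05. At most 0.16 RPKM was reached by Ifna4, Ifnk and Ifnl3, and Ifnl2 was listed at 0 in every library. Ifnb1 and the other interferon-alpha genes of the list were not analysed here, so their levels are unknown.

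Of the receptor chains for type I interferon, Ifnar1 was at 10.2 to 24.3 RPKM and Ifnar2 at 55.4 to 74.2 RPKM over all libraries, both lowest in A10-FMT replicate 3. Ifngr1, the ligand-binding chain for interferon-gamma, was 86.3, 80.4 and 63.1 RPKM in STZ and 44.7, 53.9 and 35.5 in A10-FMT, without overlap, a log2 fold change of -0.77 ± 0.17 (unadjusted p = 0.000411 and adjusted p = 0.118). Ifnar1, Ifnar2 and Ifngr1 gave 0.10, 0.02 and 0.05 in A10 against Con.

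Irf1, which carries the interferon-gamma signal to many of its targets, was 68.1, 67.7 and 68.5 RPKM in A10 and 41.96, 54.3 and 58.8 in Con (log2 fold change 0.41 ± 0.23). Replicate 3 of A10 was thus not apart in Irf1. Irf8, a factor of dendritic cells and B cells, was 112, 112 and 136 RPKM against 83.3, 97.3 and 108 (0.32 ± 0.26). In A10-FMT against Con-FMT these genes gave -0.70 (Irf1) and -0.65 (Irf8), each with an adjusted p of 0.204 in limma.

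Of a list of ligands, receptors, signalling factors, sensors, regulators and Isg15-joining enzymes, 34 genes were tested, and 0 passed the adjusted threshold of limma in any comparison. At an unadjusted p under 0.05 there were 2 of 34 higher in A10 than in Con (3.56% of all genes), 16 lower in A10-FMT than in Con-FMT (20.1% of all genes) and 6 lower in A10-FMT than in STZ (15.2% of all genes). In STZ against Con 1 was higher (Socs3) and 2 lower (Ifng and Ifnlr1), where 11.1% of all genes differed in either direction. In Con-FMT against STZ 1 was lower (Ifngr1), where 5.24% of all genes differed. The count was 0 in STZ-A10 against STZ (2.93% of all genes) and in the interaction (2.86% of all genes). The median of the 34 genes in A10 against Con was 0.11, below the 0.59 and 0.54 of the members.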

How the data were processed

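Spleen RNA of 18 mice, 3 in each of 6 groups, was sequenced after oligo(dT) enrichment. The authors aligned reads to reference genes with SOAPaligner and deposited RPKM values. The submitters' processing notes also name Bowtie 0.12.2 and mm10 without a role. Groups came from the treatment label. Members were matched by gene symbol, and 6 lines with repeated names were dropped. The members, gene lists and tests were chosen with earlier results of these data known.

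Genes with an RPKM of at least 1 in at least 3 libraries (12905) were tested with limma 3.58.1 in R 4.3.3, with a trend, on log2(RPKM + 1) over all 18 libraries. Fold changes on this scale understate those of low genes. P-values were adjusted by the Benjamini-Hochberg method over all genes, at a threshold of 0.05. The study's own test, DEGseq, needs counts and was not run. Values in every library of the groups compared are given for the 3 type I and 2 interferon-gamma members with the largest absolute fold change in each comparison. Of the pathway genes, 6 are given with values in some groups or as a range. A further gene of that list is not reported here. Zbp1, Bst2, Alas2 and the members that followed the erythroid genes were added after their values were seen. Promoter windows came from RefSeq (GRCm38.p6), and positions were set beside GENCODE M21.

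Marker lists covered plasmacytoid dendritic, NK, T, B, monocyte, red pulp macrophage, neutrophil and erythroid cells, and liver, exocrine pancreas and testis. Alternatives were other scalings, filters, a pseudocount of 0.1, library weights, only the groups compared, a replicate block and leaving out each library. The interval of a value is its SE, and precision rests on 3 libraries per group.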

Additional observations from a re-analysis of the deposited data

How the results depend on the processing

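RPKM without counts leaves the depth unknown, and 3 libraries a group left SEs of 0.17 to 0.60 (log2) per member in the comparisons of groups and up to 0.855 in the interaction. Of 29 settings per comparison, those that leave out no library called no member past the adjusted threshold except when libraries were weighted, which called 4 members in STZ against Con (28.8% of all genes), 1 in Con-FMT against STZ (18.3%), 14 in A10-FMT against Con-FMT (47%) and 16 in A10 against Con (10.3%). The cause was not tested. Leaving out each library in turn gave 0 to 5 calls in A10-FMT against Con-FMT, with 5 without A10-FMT replicate 2, where 2625 genes were called. It gave 0 to 1 in A10 against Con, with 1 without A10 replicate 2, where 9 genes were called. With only the groups compared, members at an unadjusted p under 0.05 were 9 rather than 17 in A10 against Con, 17 lower rather than 7 in A10-FMT against Con-FMT and 6 rather than 11 in the interaction, which had 5 after rescaling without globin genes.

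The median of type I members in A10-FMT against Con-FMT was -0.24 with quantile normalization and -0.21 with median centring, and that of interferon-gamma members -0.13 with median centring. Leaving out libraries moved the type I median from -0.48 to -0.031 in A10-FMT against STZ and from -0.052 to 0.28 in Con-FMT against STZ, and the interferon-gamma median from -0.12 to 0.23 in STZ-A10 against STZ. The sign turned for Rsad2 in A10-FMT against STZ (-0.047 without STZ replicate 1, up to 1.39), Xaf1 in Con-FMT against STZ (-0.024 without STZ replicate 2, up to 0.76), and Ifit1 and Isg15 in STZ-A10 against STZ (from -0.71 to 0.044 and from -0.993 to 0.14, positive without STZ replicate 3).

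With a replicate block 0 members passed in each comparison, and 18 rather than 17 were higher in A10 than in Con at an unadjusted p under 0.05. Deviations of same-numbered libraries correlated at -0.385 to 0.571. In STZ-A10 against STZ the values were 0.571, 0.044 and 0.429 for replicates 1, 2 and 3. With 3 values in each comparison this cannot decide whether the numbers pair the libraries, and the main fit used no pairing.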

Other observations

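A further 40 interferon-stimulated genes outside the members, 27 type I and 13 interferon-gamma by general knowledge, were tested in the same fit. They include Ifit3b, Ifit1bl1, Oas1g and Trim30d, named above as near-identical copies of members, further Gbp genes, and Socs1, which the list of 34 holds too. The 40 are thus not independent of the members. In A10 against Con 23 of 40 were higher at an unadjusted p under 0.05, as were 3.56% of all genes tested, and 0 at an adjusted p under 0.05 (limma), with a median log2 fold change of 0.53. In A10-FMT against Con-FMT 18 of 40 were lower at an unadjusted p under 0.05, as were 20.1% of all genes, and in A10-FMT against STZ 12 of 40, as were 15.2% of all genes. A10 replicate 3 was the highest of the 18 libraries for 25 of 27 of these type I genes and 11 of 13 of these interferon-gamma genes. The median differences from the mean of Con were 0.34, -0.01 and 1.05 (log2) in A10 replicates 1, 2 and 3 for the type I genes, and 0.66, 0.49 and 0.94 for the interferon-gamma genes. The list was drawn up with earlier results of these data known.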
